A study of Homo sapiens with 4 samples.

Results

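The genes described here act in DNA damage signalling and repair. They are a list of 37 genes, named by symbol and grouped into homologous recombination, the Fanconi pathway, end joining, checkpoint signalling, mismatch repair, base excision and direct reversal, out of 57905 genes counted in the series. All 37 were found by symbol, and 36 passed a filter on low counts.

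RNA was sequenced from U87MG, an established human glioblastoma cell line labelled wild type and kept at passages 8 to 10. The control group of 2 samples was left untreated. The chaetocin group of 2 samples received 50 nM chaetocin, a fungal metabolite that inhibits histone methyltransferases, dissolved in DMSO, for 24 h. The labels name no DMSO for the controls, so drug and solvent cannot be told apart. Polyadenylated RNA was amplified with 15 PCR cycles. All groups are 1 cell line, and nothing in the labels says that the samples of a group came from separate cultures, so the p-values measure only the spread between these samples, which may be technical. Totals ran from 21241984 to 32590479 counts per sample, at which 3 counts correspond to between 0.0844 and 0.138 CPM (counts relative to library size, after scaling of library sizes by the TMM method). These limits cover counting error only, since PCR copies are not independent molecules. The chaetocin samples were less alike than the controls, with r = 0.986 against 0.994 between the log2 CPM of the samples of a group, across genes. Of the glioma line markers, *VIM* and *CD44* were above 797 CPM in each sample, whereas *GFAP* lay between 0.460 and 1.02 CPM and *SOX2* and *S100B* had at most 0.141 CPM. The 5 glioma line markers that could be tested were all on the lower side with chaetocin, and *CHI3L1* was called lower by edgeR's quasi-likelihood test (log2 fold change -1.28). Of 9 markers of other cell types, 8 were matched and 2 of these (*CD3E* and *HBB*) had 0 counts in all samples. Their summed level was 1.43 and 1.57 CPM in the controls and 3.35 and 4.62 CPM with chaetocin, and *PTPRC*, the leukocyte marker, had 0 and 0.0348 CPM in the controls and 0.689 and 0.760 CPM with chaetocin, and it passed the filter only through the chaetocin group. The part of these markers in the values below was not tested.

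Breaks through both DNA strands are repaired either by homologous recombination, which copies the sister chromatid and so works mainly in S and G2 phase, or by end joining, which works throughout the cycle. The Fanconi pathway unhooks crosslinks between the strands and passes the break on to recombination, and mismatch and base excision repair replace wrong or oxidized bases in a single strand. ATM and ATR are kinases that sense breaks and single-stranded DNA and act through the checkpoint kinases encoded by *CHEK2* and *CHEK1*. The question asked here is whether 50 nM changed the mRNA of these pathways.

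No repair gene passed the test with chaetocin, neither upward nor downward. By edgeR's quasi-likelihood test, with p-values adjusted over 16416 genes and a threshold of 0.05, 0 of 36 were higher and 0 were lower, while 1.11% of all genes tested were higher and 0.743% were lower. The smallest p-values were those of *RAD54L*, *BRIP1* and *CHEK2*, with a higher level, and of *TP53BP1*, with a lower level. At an unadjusted p under 0.05, 7 of the 36 genes were higher (19.4%, against 10.9% of all genes tested) and 1 was lower (2.78%, against 9.43%). Both chaetocin samples lay above both controls in 12 genes (33.3%, against 26.8% of all genes) and below both in 5 (13.9%, against 26.0%), and the groups overlapped in the other 19. The log2 fold change was above 0 in 21 of 36 (58.3%, against 50.9%), with a median of 0.07 against 0.01 for all genes tested. The order of these medians turned in other settings. By DESeq2 the repair genes had 0.055 against 0.092 for all genes, and with no filter on low counts 0.052 against 0.082. DESeq2's Wald test called 1 of the genes higher, *RAD54L*, and 0 lower, against 2.35% and 2.93% of all genes.

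The count of calls rested on which samples entered. Without chaetocin sample 1, edgeR's quasi-likelihood test called *RAD54L*, *BRIP1*, *BARD1*, *CHEK2* and *FANCI* higher and *APEX1* lower, while 7.55% of all genes tested were higher and 9.48% lower. Without chaetocin sample 2 it called *RAD54L* higher and *ATM* and *TP53BP1* lower, against 4.23% and 5.59% of all genes. A lone sample in such a fit is assumed to vary like the other group.

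**Figure D1:**
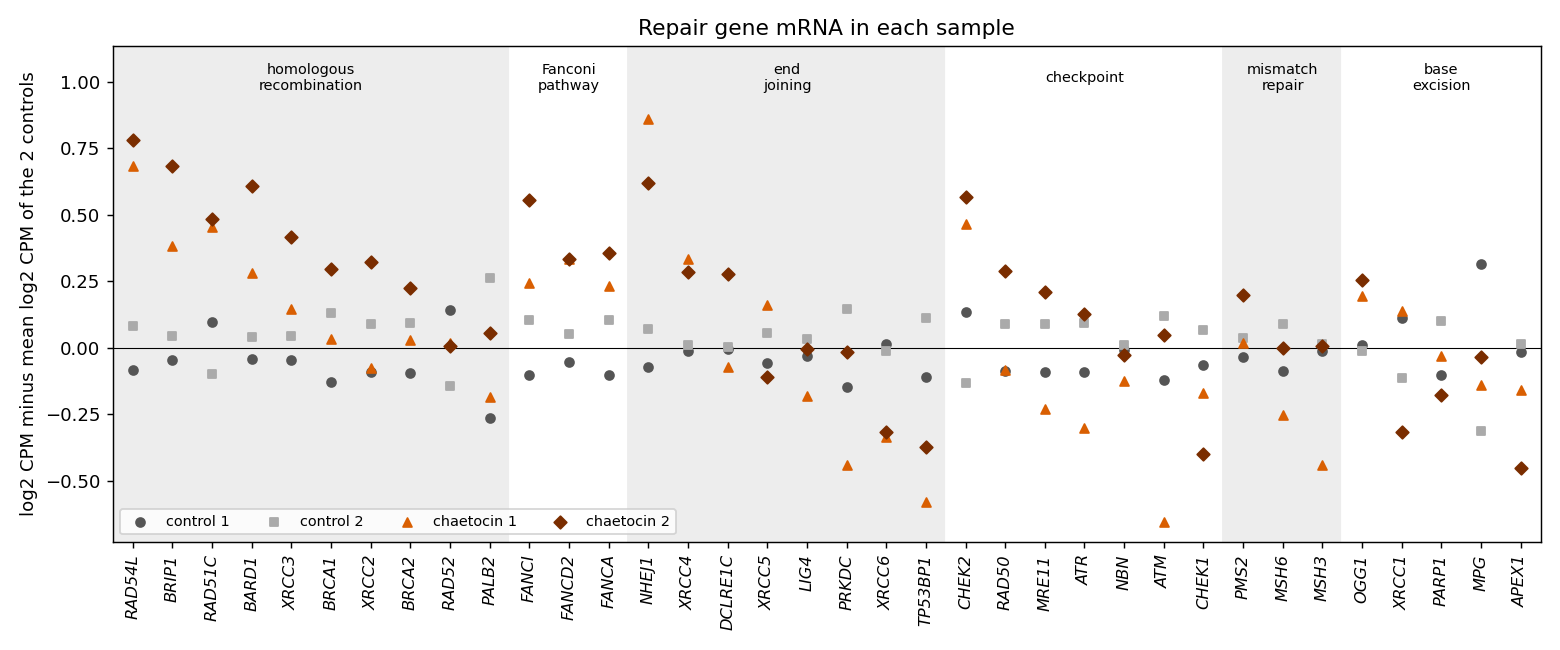
Level of the 36 repair genes that passed the filter in each of the 4 samples, as log2 CPM minus the mean log2 CPM of the 2 controls, with 1 point per sample and genes ordered by pathway. Among others, both chaetocin points lie above both control points for *RAD54L*, *BRIP1*, *RAD51C*, *BARD1*, *XRCC3* and all 3 Fanconi genes, and below them for *XRCC6* and *TP53BP1*.

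In homologous recombination, 9 of 10 genes had a log2 fold change above 0, the groups did not overlap in 5, all of them higher with chaetocin (50%, against 26.8% of all genes tested), and the median was 0.23. The median was 0.078 without chaetocin sample 2 and 0.370 without chaetocin sample 1. *RAD54L* encodes the motor protein that helps the recombinase filament invade the homologous strand. It lies at 46247688 to 46278473 on the plus strand of chromosome 1 (GRCh38). Its level was 28.5 and 31.9 CPM in the controls and 48.4 and 51.8 CPM with chaetocin. Both treated samples were thus well above both controls, by a log2 fold change of 0.73 (SE 0.15, 95% interval 0.38 to 1.08), and the adjusted p of 0.0533 from edgeR's quasi-likelihood test just missed the threshold. DESeq2's Wald test gave 0.71 with an adjusted p of 0.0144. *RAD54L* shares 806 of its 3212 exon bases with exons of *LRRC41* on the opposite strand, a gene at 73.7 CPM on average whose log2 fold change was 0.13, and the strand setting of the counting is not given in the sources used here. Without strand, reads of such partners cannot be told apart, and 14 of the listed genes share exon bases with a tested gene of the other strand.

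*BRIP1* encodes the helicase that binds BRCA1. Its level was 26.9 and 28.7 CPM in the controls and 36.3 and 44.7 CPM with chaetocin. The groups did not overlap, with a log2 fold change of 0.54 (SE 0.17, 95% interval 0.16 to 0.92) and an adjusted p of 0.125 by edgeR's quasi-likelihood test. *RAD51C*, a recombinase paralog that helps load and stabilize the filament, had 19.4 and 16.9 CPM in the controls and 24.9 and 25.3 CPM with chaetocin, a log2 fold change of 0.47. *BARD1*, the partner of BRCA1 in its ubiquitin ligase, had 25.9 and 27.5 against 32.4 and 40.7 CPM, a log2 fold change of 0.45. That of *BARD1* was 0.61 without chaetocin sample 1 and 0.27 without chaetocin sample 2. *XRCC3*, another recombinase paralog, was also above the controls in both treated samples, with a log2 fold change of 0.29 (95% interval -0.11 to 0.68). This value was 0.42 without chaetocin sample 1 and 0.14 without chaetocin sample 2. *XRCC3* shares 5756 of its 7507 exon bases with exons of *KLC1* on the opposite strand. *KLC1* was at 36.4 CPM on average, against 22.7 CPM for *XRCC3*, and its log2 fold change was -0.41.

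In the other genes of the pathway the groups overlapped. Their difference from the genes above was not tested. *BRCA1*, which promotes the resection of ends and recruits PALB2, had 78.1 and 93.5 CPM in the controls and 87.5 and 105 CPM with chaetocin, so the groups overlapped. Its log2 fold change was 0.17 (95% interval -0.21 to 0.54), while that of *BRCA2*, the loader of the recombinase, was 0.13 (95% interval -0.24 to 0.49). *XRCC2*, a further recombinase paralog, stood at 0.14 and *RAD52*, an annealing protein, at 0.01. *PALB2*, which bridges BRCA1 and BRCA2, was the only one of the 10 with a value below 0, at -0.08 (95% interval -0.55 to 0.38), and its controls differed from each other by more than the groups did, at 27.5 and 39.6 CPM against 29 and 34.3 CPM.

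In the Fanconi pathway, the 3 genes listed (*FANCA*, *FANCD2* and *FANCI*) were each above both controls in both chaetocin samples, as were 26.8% of all genes tested, with a median log2 fold change of 0.33. *FANCI*, the clamp subunit that is ubiquitinated together with FANCD2, had 108 and 125 CPM in the controls and 138 and 171 CPM with chaetocin. Its log2 fold change was 0.41 (SE 0.17, 95% interval 0.03 to 0.79), with an adjusted p of 0.222 by edgeR's quasi-likelihood test. This log2 fold change was 0.556 without chaetocin sample 1 and 0.233 without chaetocin sample 2. *FANCD2* itself had 59.3 and 63.8 against 77.5 and 77.6 CPM, a log2 fold change of 0.33 (95% interval 0.01 to 0.65). *FANCA*, a subunit of the ligase complex that modifies the clamp, had 45.4 and 52.4 against 57.3 and 62.4 CPM, a log2 fold change of 0.29 (95% interval -0.06 to 0.64). The 3 values were of like size, and none passed the adjusted threshold.

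The promoters of *RAD54L* and *BRIP1*, the members with the smallest p-values, are shown with their CCAAT boxes. The sequences are RefSeq promoters on GRCh38.p14, the 250 bases before the annotated start, in the direction of transcription, at chr1:46247438-46247687 on the plus strand for *RAD54L* and at chr17:61863529-61863778 on the minus strand for *BRIP1*. Capitals mark CCAAT boxes, written as ATTGG where they lie on the other strand, and the cell cycle homology region (CHR, searched as TTTGAA or TTCGAA on both strands), found here as TTCAAA.
RAD54L: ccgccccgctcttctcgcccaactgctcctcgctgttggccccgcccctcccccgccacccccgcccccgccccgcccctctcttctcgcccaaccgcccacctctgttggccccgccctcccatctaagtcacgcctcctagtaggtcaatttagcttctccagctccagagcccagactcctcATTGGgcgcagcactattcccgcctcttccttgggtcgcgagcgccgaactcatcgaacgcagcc
BRIP1: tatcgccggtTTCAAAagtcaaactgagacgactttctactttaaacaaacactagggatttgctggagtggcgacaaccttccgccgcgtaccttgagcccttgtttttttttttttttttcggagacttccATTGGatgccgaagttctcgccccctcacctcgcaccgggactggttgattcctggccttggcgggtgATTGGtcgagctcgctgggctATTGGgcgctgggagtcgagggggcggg
The single box of *RAD54L* begins 65 bases before the start, and the boxes of *BRIP1* begin 117, 49 and 28 bases before it. A promoter entry (from 250 bases before to 50 after the start) was found for 32 of the genes, and 19 of these held CCAAT on either strand, or 59.4%, against 36.6% of the 11557 promoters of genes tested and 35.7% of all 27305 promoters. The holders include *TP53BP1*, *XRCC6*, *APEX1*, *CHEK1* and *ATM*, and their median log2 fold change was 0.01, against 0.13 in the repair genes without the box. A set of E2F sites (TTTCCCGC, TTTGGCGC, TTTGCCGC or TTTCGCGC) was in 7 of the 32, or 21.9%, against 5.12% of those of genes tested and 3.33% of all. The 7 genes were *FANCA*, *FANCD2*, *MSH3*, *MSH6*, *PMS2*, *XRCC2* and *XRCC6*, and their median log2 fold change was 0.11, as in the repair genes without such a site (0.11). Sites of the ETS family (CCGGAAG) were in 34.4%, against 18.3% of those of genes tested and 10.7% of all, and CHR in 9.38%, against 11.6% and 16.6%. These are matches of letters and not measured binding.

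In end joining, the 8 genes went both ways, with 4 above and 4 below 0 and a median log2 fold change of -0.03. *TP53BP1* encodes the chromatin reader that shields broken ends from resection and so opposes BRCA1. Its level was 111 and 130 CPM in the controls and 80.3 and 92.6 CPM with chaetocin. Both treated samples were below both controls, with a log2 fold change of -0.48 (SE 0.16, 95% interval -0.83 to -0.12) and an adjusted p of 0.141 by edgeR's quasi-likelihood test. The gene lies at 43403061 to 43510728 on the minus strand of chromosome 15 (GRCh38) and shares 3732 of its 12991 exon bases with *TUBGCP4* on the opposite strand, whose log2 fold change was -0.16.

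Ku, the ring that first binds broken ends, is made of the products of *XRCC6* and *XRCC5*, and only the first differed between the groups without overlap. *XRCC6* had 297 and 292 CPM in the controls and 234 and 236 CPM with chaetocin, a log2 fold change of -0.33 (SE 0.15, 95% interval -0.67 to 0.01). *XRCC5* had 364 and 394 against 423 and 351 CPM, so its groups overlapped, with a log2 fold change of 0.03 (95% interval -0.36 to 0.42). *XRCC6* has processed copies elsewhere in the genome that can share reads with it. *PRKDC*, the kinase that Ku recruits, was the most abundant member by count, with 831 and 1018 CPM against 677 and 910 CPM. Its groups overlapped, and its log2 fold change was -0.22 (95% interval -0.71 to 0.27), with -0.019 without chaetocin sample 1 and -0.455 without chaetocin sample 2.

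*NHEJ1*, which aligns ends beside the ligase, had only 20 and 26 counts in the controls and 34 and 47 counts with chaetocin. This came to 0.820 and 0.905 CPM against 1.56 and 1.32 CPM, and the log2 fold change of 0.73 had an interval from -0.18 to 1.64. *XRCC4*, the scaffold of the ligase, had 15.2 and 15.5 against 19.3 and 18.7 CPM, a log2 fold change of 0.31 (95% interval -0.08 to 0.70). *LIG4*, the ligase, stood at -0.09 (95% interval -0.42 to 0.24), and *DCLRE1C*, the nuclease that opens hairpin ends, at 0.12 (95% interval -0.29 to 0.52).

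Among the 7 sensor and checkpoint genes, *CHEK2* was higher and *CHEK1* was lower in both treated samples than in both controls. Of the 7, 14.3% were above both controls in both treated samples, against 26.8% of all genes tested. A further 28.6% were below both, *NBN* among them, against 26.0% of all genes tested. *CHEK2*, the kinase downstream of ATM, had 27.4 and 22.8 CPM in the controls and 34.6 and 37 CPM with chaetocin. Its log2 fold change was 0.51 (SE 0.17, 95% interval 0.13 to 0.89), with an adjusted p of 0.139 by edgeR's quasi-likelihood test. *CHEK1*, the kinase downstream of ATR, had 43.4 and 47.5 against 40.3 and 34.4 CPM, a log2 fold change of -0.28 (95% interval -0.65 to 0.08). The counts of *CHEK2* are uncertain, since truncated copies of the gene exist on other chromosomes, and 301 of its 4493 exon bases overlap *HSCB* on the opposite strand, whose log2 fold change was 0.22.

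The kinases above them did not separate. *ATM* had 66.3 and 78.3 CPM in the controls and 45.8 and 74.5 CPM with chaetocin, so chaetocin sample 1 alone was low. The log2 fold change was -0.26 (95% interval -0.78 to 0.26), it was -0.67 with an adjusted p of 0.0161 by edgeR's quasi-likelihood test without chaetocin sample 2, and it was 0.04 without chaetocin sample 1. *ATR* stood at -0.07 (95% interval -0.49 to 0.34). The members of the complex that senses ends and activates ATM were also close to 0, with *RAD50*, its long coiled-coil subunit, at 0.11, *MRE11*, its nuclease, at 0.01 and *NBN*, its signalling subunit, at -0.07. *NBN* was nevertheless below the controls in both treated samples, at 83.4 and 84.5 against 76.9 and 82.4 CPM.

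In mismatch repair, the groups overlapped for each of the 3 genes. *MSH6*, which recognizes single mispairs, had 177 and 200 CPM in the controls and 158 and 188 CPM with chaetocin, a log2 fold change of -0.12 (95% interval -0.49 to 0.24). *MSH3*, its counterpart for larger loops, had 35.2 and 35.9 against 26.2 and 35.7 CPM, a log2 fold change of -0.20 (95% interval -0.62 to 0.22), so that only chaetocin sample 1 stood low. *PMS2*, the endonuclease subunit, had 14.5 and 15.2 against 15.0 and 17.0 CPM, a log2 fold change of 0.11 (95% interval -0.30 to 0.53), and it has many pseudogene copies that may take some of its reads.

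In base excision repair, 4 of 5 genes had a log2 fold change below 0, and the median was -0.11, though 0.03 without control sample 1. *APEX1*, the endonuclease that cuts at sites without a base, had 60.8 and 62.0 CPM in the controls and 55.0 and 44.8 CPM with chaetocin. The log2 fold change was -0.30 (95% interval -0.66 to 0.06), with -0.45 without chaetocin sample 1 and -0.17 without chaetocin sample 2. *OGG1*, the glycosylase for oxidized guanine, went the other way, with 19.6 and 19.3 against 22.3 and 23.3 CPM and a log2 fold change of 0.23 (95% interval -0.14 to 0.60). It overlaps *CAMK1* and *TADA3* on the opposite strand, at 0.39 and -0.31, and the second of these is far more abundant, at 167 CPM. *PARP1*, the sensor of single-strand breaks, stood at -0.11 (95% interval -0.46 to 0.25), *MPG*, the glycosylase for alkylated bases, at -0.12 and *XRCC1*, the scaffold of the ligation step, at -0.08, all with overlapping groups. *MGMT*, which directly removes alkyl groups from guanine, had 0 counts in each of the 4 samples, which allows up to 0.138 CPM in the shallowest.

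**Figure D2:**
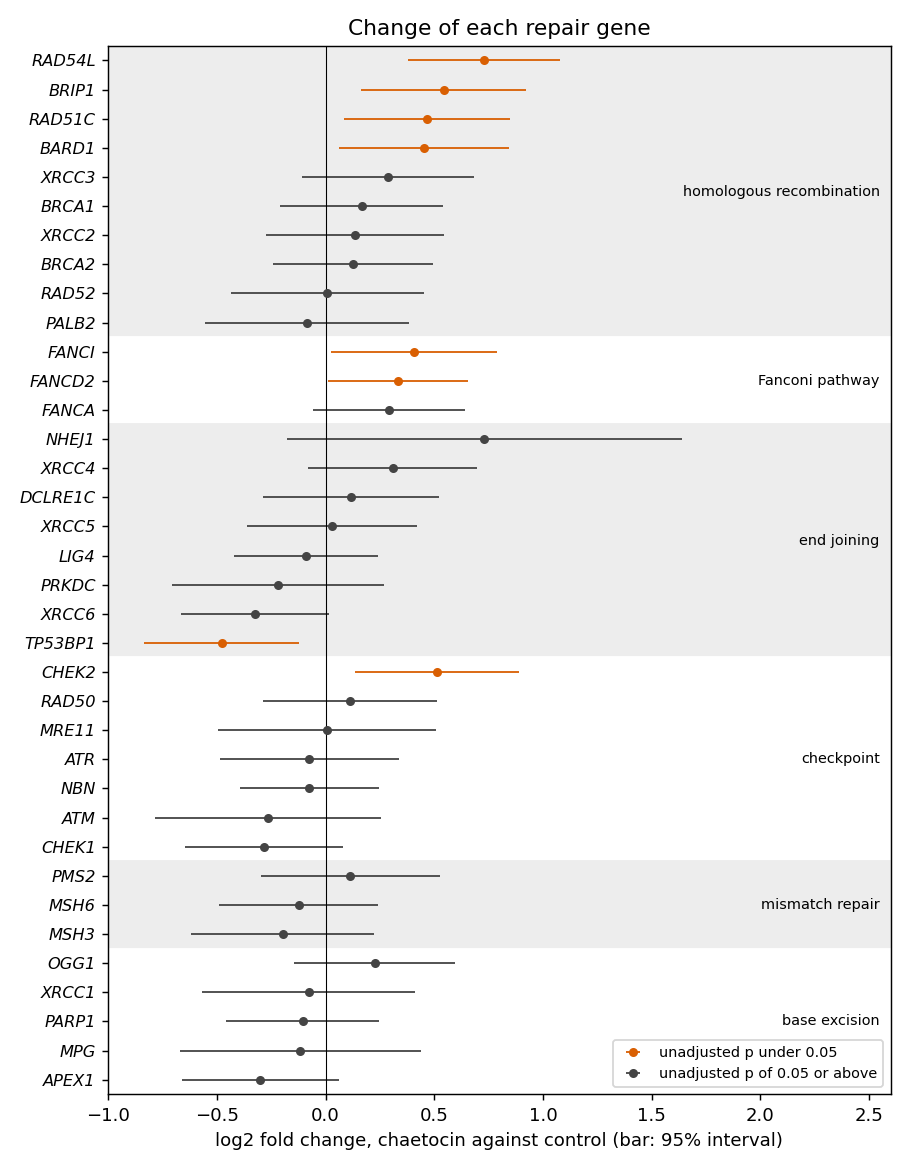
Log2 fold change of each of the 36 repair genes (chaetocin against control, edgeR) with its 95% interval, ordered by pathway, with genes at an unadjusted p under 0.05 in orange. *RAD54L* (0.73) has the interval farthest above 0, *TP53BP1* (-0.48) is the only gene whose interval lies below 0, and *NHEJ1* (0.73) has the widest interval.

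Ratios of counts within a sample do not depend on how libraries are scaled, so they were computed for 10 pairs of partners, chosen after the values were seen and thus given as a description. The groups did not overlap in 6 of them, and among single genes 26.8% of all tested were above and 26.0% below both controls in both treated samples. The share among ratios of other gene pairs was not computed, so the 6 cannot be set against it. The ratio of *BRCA1* to *TP53BP1*, whose products oppose each other at broken ends, was 0.703 and 0.721 in the controls and 1.09 and 1.13 with chaetocin. The ratio of *CHEK2* to *CHEK1* was 0.632 and 0.480 in the controls and 0.857 and 1.08 with chaetocin. That of *XRCC5* to *XRCC6*, the Ku subunits, was 1.22 and 1.35 against 1.81 and 1.48. All of these were higher in both treated samples, as were *ATR* to *ATM* (1.94 and 1.86 against 2.42 and 2.01) and, by little, *RAD50* to *MRE11* (14.4 and 14.4 against 16.0 and 15.3). The ratio of *BRCA1* to *BARD1* was lower, at 3.01 and 3.40 against 2.70 and 2.58. The ratios of *BRCA1* to *BRCA2*, *MSH6* to *MSH3*, *FANCI* to *FANCD2* and *RAD50* to *NBN* overlapped between the groups. An exact two-sided permutation test of 2 against 2 samples cannot give a p below 0.333, so no test of a ratio was made.

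Per kilobase of transcript, a scale on which genes can be compared, the 36 members that passed the filter spanned from 0.412 to 109 CPM per kb in the controls. *XRCC6* and *XRCC5* were the highest, at 109 and 101 CPM per kb, followed by *PRKDC* at 68.4, *PARP1* at 48.8 and *APEX1* at 41.4. With chaetocin *XRCC5* led with 103 and *XRCC6* followed with 86.8 CPM per kb. At the other end stood *NHEJ1* at 0.412, *MRE11* at 1.75 and *BRCA2* at 2.93 CPM per kb in the controls. *RAD54L* went from 9.72 to 16.1 CPM per kb and *TP53BP1* from 19.0 to 13.6 CPM per kb. Thus in the controls *TP53BP1* was above *RAD54L* and *BRCA1* (11.8 CPM per kb), and with chaetocin *RAD54L* was the highest of these, with *BRCA1* at 13.2 CPM per kb. The lengths are those of 1 protein-coding transcript per gene and do not follow which isoform the cells used.

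**Figure D3:**
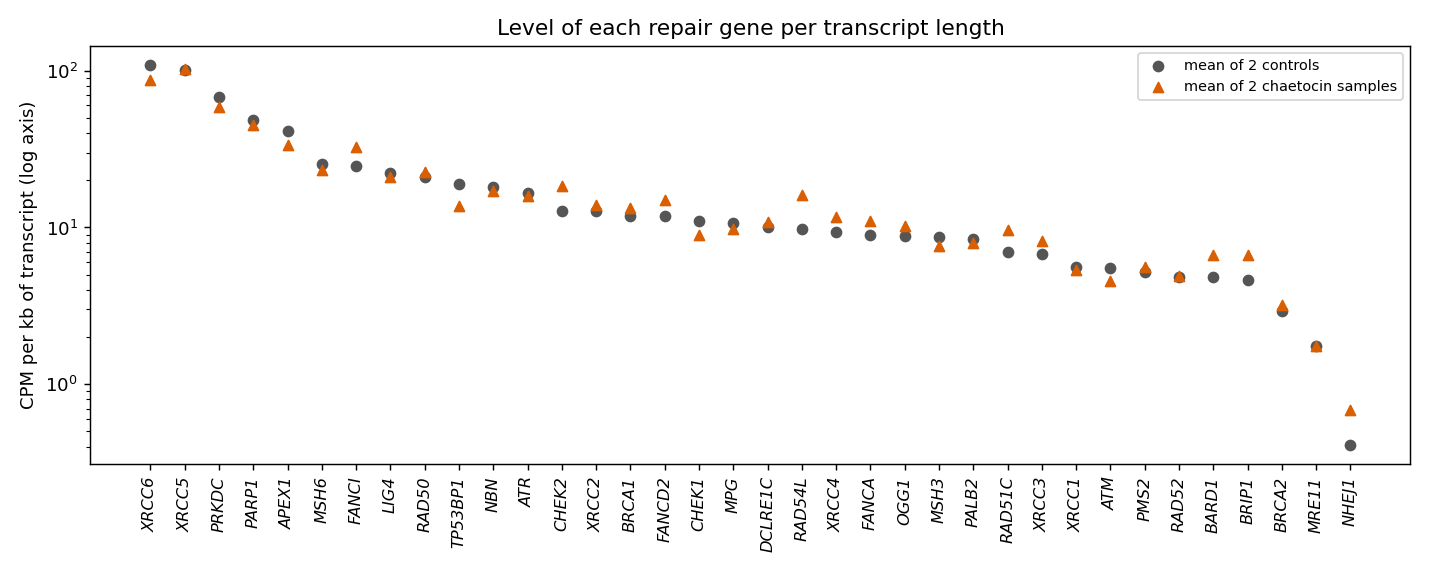
Mean level of the 36 repair genes in CPM per kb of transcript on a log axis, for the 2 controls and the 2 chaetocin samples, ordered by the control level. The end-joining genes *XRCC6* and *XRCC5* lead at 109 and 101 CPM per kb, and *NHEJ1* is the lowest at 0.412.

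Beyond these genes, 105 other repair genes passed the filter. The log2 fold change was above 0 in 67 of them, with a median of 0.09, and at an unadjusted p under 0.05, 18 were higher (17.1%, against 10.9% of all genes) and 1 was lower (0.952%, against 9.43%). *NEIL3*, a glycosylase that removes oxidized bases and unhooks crosslinks during replication, was the 1 gene called higher by edgeR's quasi-likelihood test (0.952%, against 1.11% of all genes), and 0 were called lower. Its level rose from 46.8 and 52.2 CPM in the controls to 91.9 and 151 CPM with chaetocin, a log2 fold change of 1.30 (SE 0.23, adjusted p = 0.0382). DESeq2's Wald test called 3 of these genes higher, namely *NEIL3* and the checkpoint genes *CLSPN*, a mediator of ATR signalling, and *CDC25C*, a phosphatase of mitotic entry (0.70 and 0.72 on the log2 scale), and 0 lower. This was 2.86% of the 105, near the 2.35% of all genes. In the other 18 homologous recombination genes the median was 0.21, with 14 above 0 (77.8%, against 50.9% of all genes) and 10 above the controls in both treated samples (55.6%, against 26.8%). In the other 13 Fanconi genes the median was 0.14, in the other 11 end-joining genes 0.10 and in the other 16 checkpoint genes 0.10. In the other 17 base excision genes the median was 0.01, with 10 above 0. In 16 nucleotide excision genes, which remove bulky lesions, the median was -0.12 and 10 were below 0. The other pair of mismatch genes, *MLH3* and *PMS1*, stood at -0.33 and -0.18. The difference between pathways was not tested.

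Markers of the cell cycle were also on the higher side with chaetocin. All 15 markers of S phase entry, S and G2/M phase had a log2 fold change above 0, against 50.9% of all genes tested. Their median was 0.36, and their summed level was 2982 and 3249 CPM in the controls and 3980 and 4245 CPM with chaetocin. Of the 15 markers, 2 were called higher by edgeR's quasi-likelihood test, against 1.11% of all genes tested. These were *RRM2*, the regulated subunit of ribonucleotide reductase, and *CCNE1*, the cyclin of S phase entry. Their log2 fold changes were 1.02 and 1.18, with adjusted p-values of 0.0311 and 0.0279 by that test. The part of the cycle markers in the values of the repair genes was not tested. In bulk RNA, fewer cells of a type or phase and less RNA per cell cannot be told apart.

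Many of the members lie head to head with another gene. Of the 36, 19 (52.8%) had the start of a protein-coding gene of the other strand within 1000 bases of their own, against 17.0% of the 13151 protein-coding genes tested. *PRKDC* and *MCM4*, a subunit of the replicative helicase, start 2 bases apart and had log2 fold changes of -0.22 and -0.19. *XRCC6* and *DESI1* start 23 bases apart and had -0.33 and -0.71, and *TP53BP1* and *MAP1A*, 230 bases apart, had -0.48 and -0.89. Neither partner passed the adjusted threshold, at 0.0633 and 0.0649 by edgeR's quasi-likelihood test. *APEX1* and *OSGEP* had -0.30 and -0.37, while *LIG4* and *ABHD13*, 11 bases apart, had -0.09 and 0.25, and *BRCA1* and *NBR1* had 0.17 and -0.31. Beside *RAD51C*, *TEX14*, a gene of germ cell bridges, had 0 counts in both controls and 14 and 28 with chaetocin, so it passed the filter only through the chaetocin group. Beside *RAD50*, *IL5*, a cytokine gene, had 0 and 2 counts in the controls and 14 and 23 with chaetocin, and it too passed only through that group. These neighbours were named after their values were seen.

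The length of a gene on the chromosome moved with the difference between samples of a group. Across the 36 genes, Spearman's rho between the span and the log2 difference of sample 1 from sample 2 was -0.381 in the chaetocin group and -0.378 in the controls, and across 15981 genes tested it was -0.174 and -0.0865. Long genes thus tended to be lower in the samples numbered 1. The genes of a sample share its library, so these values are a description. The part of this in the low values of *ATM*, *PRKDC* and *MSH3* in chaetocin sample 1 was not tested.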

How the data were processed

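The authors deposited raw counts of reads per gene, 1 table per sample with 57905 Ensembl identifiers. The submitters' processing notes name cutadapt, TopHat2, SAMtools and GRCh37. The counting tool, the strand setting and the annotation release are not given in the sources used here. The study's own differential expression used DESeq2. Symbols, positions and lengths come from the GENCODE v29 annotation of GRCh38, where 52338 identifiers were found, so no coordinate is on the build of the files. CPM are counts divided by the TMM-scaled library size and multiplied by 1e+06.

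Samples were grouped by their titles, with 2 per group. Counts were tested in R 4.3.3 with edgeR 4.0.16 (filterByExpr with a minimum count of 10, TMM, robust quasi-likelihood fit, no block) and adjusted by Benjamini and Hochberg over the 16416 genes kept. The biological coefficient of variation was 16.8%. Intervals are 95% intervals of the fitted log2 fold change. Alternatives were other size factors and filters, a replicate block, DESeq2 1.42.0, a fit without robust dispersion, unadjusted p-values and leaving out each sample.

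The genes and the comparison lists were chosen with earlier results of these data known. All genes of the list are named, with values in each sample for those with the smallest p and the most extreme changes of a pathway, and for others added after their values were seen. Of other repair genes, those called were named, and *MLH3*, *PMS1* and genes that overlap or neighbour a member were named after their values were seen. One of the listed markers of other cell types is not reported here.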

Additional observations from a re-analysis of the deposited data

How the results depend on the processing

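At depths of 21241984 to 32590479 counts, genes near 1 CPM such as *NHEJ1* rest on few counts (20 to 47). Genes called higher and lower over all genes numbered 385 and 481 by DESeq2, 114 and 80 when each sample had to reach 10 counts, 787 and 759 with no filter, 1791 and 1548 at unadjusted p, and between 215 and 1332 and between 97 and 1673 with 1 sample left out. Repair genes called higher numbered 1 by DESeq2, with no filter and with upper-quartile scaling (*RAD54L* each time, adjusted p = 0.0144, 0.00430 and 0.0429, while 2.35%, 2.48% and 1.5% of all genes were called higher), 7 at unadjusted p and 0 to 5 with 1 sample left out. Those called lower numbered 1 at unadjusted p and 0 to 2 with 1 sample left out. Replicate numbers are shared between the groups, but the labels do not say that they mark pairs, and the log2 differences between samples 1 and 2 of the groups correlated with r = 0.123 across genes. With the replicate block 1036 and 1053 genes were called (6.31% and 6.41%), and of the repair genes *RAD54L*, *BRIP1* and *CHEK2* (3 higher) and *TP53BP1* (1 lower), with adjusted p-values of 0.00162, 0.0262, 0.0363 and 0.0273 by edgeR's quasi-likelihood test.

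Upper-quartile scaling moved the median log2 fold change of all genes tested to 0.08, that of base excision to -0.029 and that of end joining to 0.047. With 1 sample left out, the median ranged from -0.018 to 0.206 for all repair genes, 0.078 to 0.370 for homologous recombination, 0.233 to 0.389 for the Fanconi pathway, -0.196 to 0.026 for base excision, -0.181 to 0.127 for checkpoint genes, -0.135 to 0.0049 for end joining and -0.262 to 0.0090 for mismatch repair. Values close to 0 changed sign, namely *ATR* (0.0042) and *NBN* (0.0020) with upper-quartile scaling, *MRE11* (-0.0056) with the block, and *MRE11* and *RAD52* with no filter (-0.011 and -0.012) and by DESeq2 (-0.0081 and -0.0093). The cause was not tested. With 1 sample left out, log2 fold changes ranged over both sides of 0 for *ATM* (-0.666 to 0.0446), *ATR* (-0.314 to 0.127), *DCLRE1C* (-0.0806 to 0.282), *MPG* (-0.41 to 0.215), *MRE11* (-0.243 to 0.21), *MSH3* (-0.448 to 0.00896), *PALB2* (-0.337 to 0.192), *RAD50* (-0.0942 to 0.291), *RAD52* (-0.14 to 0.143), *XRCC1* (-0.316 to 0.129), *XRCC2* (-0.0855 to 0.321) and *XRCC5* (-0.107 to 0.152). In the settings with all samples, 238 of the values of single genes kept their direction and side of the threshold. Of the others, 7 changed direction and 7 passed the threshold. With 1 sample left out, 17 values changed direction.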
